A study of Mus musculus with 11 samples.

Results

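Dmd, Utrn, Dag1 and Lama2, which encode dystrophin, utrophin, dystroglycan and the laminin alpha 2 chain, were followed in the tibialis anterior (TA) of *mdx* mice. The genes were chosen by symbol, for their place in the link between the muscle fibre and its basement membrane. Earlier results of these data were known when they were chosen. Each of the 4 genes had 1 probe set, among 28350 probe sets for 21759 gene symbols, and all 4 reached the minimum for testing, a group mean of 30 or more in any of the groups, as did 14494 probe sets (51.1%) in all. RNA came from cryosections of the middle of the TA of 11 male mice of 14 weeks of age on the C57/B10 background as the labels give it, with a separate Affymetrix Mouse Gene ST array for each mouse. The C57 group held 3 untreated wild-type mice. The *mdx* group held 4 untreated mice of the strain C57/Bl10ScSn-Dmd mdx/J, as the methods of the study name it, which carry the *mdx* mutation of Dmd, a premature stop codon. The Pip6e-PMO group held 4 mice with the same mutation, given 1 injection of Pip6e-PMO into the tail vein at 12.5 mg/kg and 12 weeks of age. The mutation was thus shared by *mdx* and treated mice and absent from C57 mice, and only 1 dose and 1 time after it were measured.

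Dystrophin ties the actin cytoskeleton beneath the fibre membrane to dystroglycan. Dag1 encodes both dystroglycan subunits, of which beta-dystroglycan spans the membrane and binds dystrophin, and alpha-dystroglycan sits outside and, through its sugar chains, binds laminins that contain the alpha 2 chain, the main laminins of the adult muscle basement membrane. Utrophin is the autosomal relative of dystrophin, binds the same partners, and in normal adult muscle is mostly found at neuromuscular and myotendinous junctions.

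Pip6e-PMO is a phosphorodiamidate morpholino oligonucleotide (PMO) joined to an arginine-rich, cell-penetrating peptide (Pip6e). It pairs with the Dmd pre-mRNA at a splice donor so that the exon with the stop codon is left out. Its sequence is shown because Dmd is the gene it acts on. It has 25 bases, of which 52.0% are G or C, and the second line is its reverse complement, which is the strand of the Dmd transcript it pairs with, written as DNA. The capitals mark GTAAG, the start of the intron at the donor site, and its complement in the PMO, with 7 bases of the target before GTAAG and 18 from its first base on.
PMO: ggccaaacctcggCTTACctgaaat
Target strand: atttcagGTAAGccgaggtttggcc

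The probe set of Dmd (10600604) has 80 probes between positions 80194242 and 82450380 of chromosome X, on the plus strand, a span of 2256139 bases. That of Utrn (10367843) has 75 probes on chromosome 10, minus strand, from 12101986 to 12581533, and that of Lama2 (10368409) has 63 probes on the same chromosome and strand, from 26701091 to 27336748. Dag1 is read by 29 probes (probe set 10596893) on chromosome 9, minus strand, from 108108265 to 108166255. Positions are those of the deposited table, which names no genome build, and they hold only within it. All 4 probe sets are marked as unique to their gene, and no other probe set had the same values as any of them. Each signal is a summary, by median polish, of the probes of a set. The place of each Dmd probe in long and short transcripts, or in the skipped exon, was not read. The signal thus does not tell these forms apart, and their weights in it are not known.

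Dystrophin mRNA was lower on average in *mdx* than in C57 mice, but it varied widely among the *mdx* mice and the difference was not called. The log2 signal of Dmd was 5.87, 5.83 and 5.77 in C57 mice 1 to 3. It was 5.82, 5.36, 5.33 and 4.60 in *mdx* mice 1 to 4, and 6.34, 5.51, 5.68 and 5.68 in Pip6e-PMO mice 1 to 4. The C57 mice lay within 0.10 of each other, *mdx* mouse 1 lay among them, the 3 other *mdx* mice lay below all of them, and *mdx* mouse 4 lay below the minimum signal, which is 4.91 on this scale. Of the treated mice, mouse 1 had the highest Dmd signal of all 11 mice and the other 3 lay below every C57 mouse and below *mdx* mouse 1. Group means were 5.82 ± 0.05 (SD, n = 3) for C57 mice, 5.28 ± 0.50 (SD, n = 4) for *mdx* mice and 5.80 ± 0.37 (SD, n = 4) after treatment.

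Differences between groups were tested with limma over all 14494 probe sets, and a gene is named as called where the p, adjusted by the Benjamini-Hochberg method, was under 0.05. Dmd differed by -0.55 (SE 0.25) in *mdx* minus C57, which is 0.685-fold with a 95% interval of 0.470 to 0.998 (adjusted p = 0.198). In treated minus *mdx* mice it differed by 0.52 (SE 0.23), or 1.44-fold with an interval of 1.02 to 2.04 (adjusted p = 0.142). Treated and C57 mice differed by -0.02 (SE 0.25; adjusted p = 0.961), with an interval of -0.56 to 0.52, so a difference of either sign within that range remains possible. The size of the first 2 differences depended on single mice. Without *mdx* mouse 4 they were -0.32 and 0.30, and without *mdx* mouse 1 they were -0.73 and 0.71. Without treated mouse 1 the second was 0.35. In sections of whole muscle, fewer cells of a type and less RNA per cell cannot be told apart, for Dmd or any gene below.

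**Figure D1:**
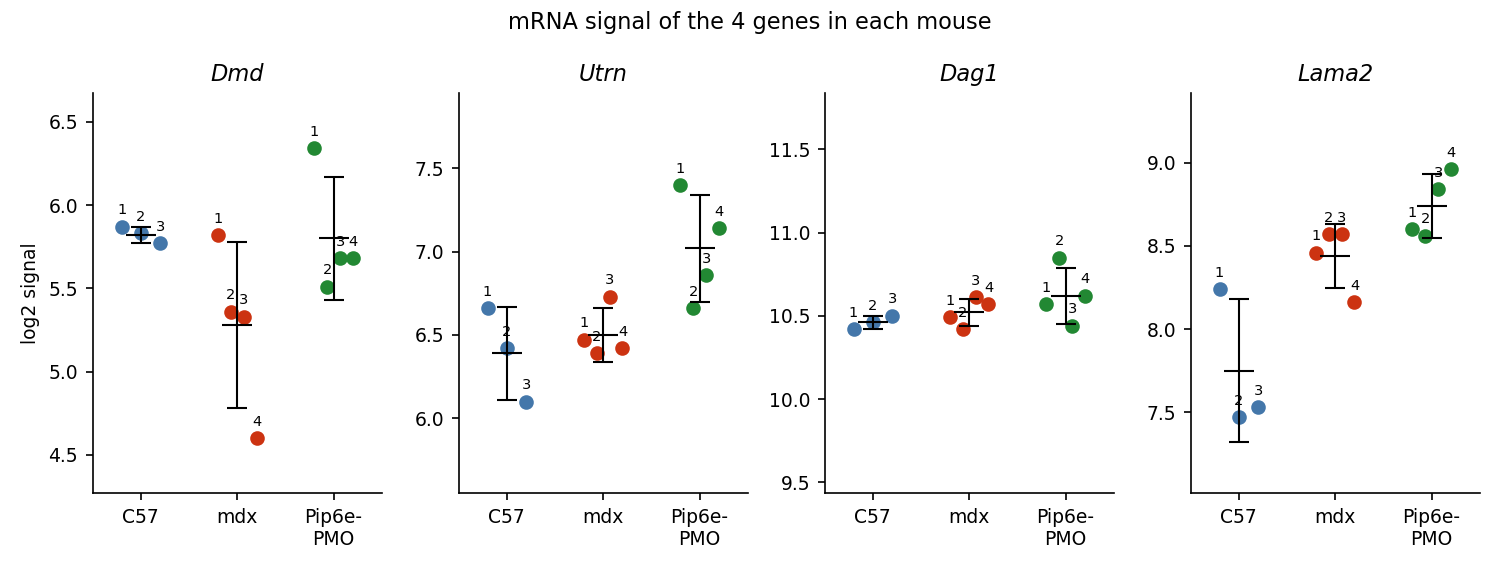
Log2 signal (vertical axes, each spanning its own range) of Dmd, Utrn, Dag1 and Lama2 in each of 11 mice, with points numbered by mouse and bars for the mean and SD of the 3 C57, 4 *mdx* and 4 Pip6e-PMO mice. Dmd spans 4.60 to 5.82 among *mdx* mice, and every treated mouse lies above every C57 mouse for Lama2 only.

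Utrophin mRNA was near the C57 level in untreated *mdx* muscle and higher in treated muscle, where it rose 1.54-fold over C57. In C57 mice 1 to 3 the log2 signal of Utrn was 6.66, 6.42 and 6.10, and in *mdx* mice 1 to 4 it was 6.47, 6.39, 6.73 and 6.42. In Pip6e-PMO mice 1 to 4 it was 7.40, 6.66, 6.86 and 7.14. Treated mice 1, 3 and 4 lay above every untreated mouse of either genotype, while treated mouse 2 lay at the level of C57 mouse 1 and below *mdx* mouse 3. The means were 6.39 ± 0.28 (SD, n = 3), 6.50 ± 0.16 (SD, n = 4) and 7.02 ± 0.32 (SD, n = 4). Utrn differed by 0.11 (SE 0.18; 95% interval -0.28 to 0.50; adjusted p = 0.777) in *mdx* minus C57.

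Between treated and C57 mice Utrn was called, at 0.62 (SE 0.18; adjusted p = 0.0262), with a fold interval of 1.18 to 2.01. In treated minus *mdx* mice it differed by 0.51 (SE 0.16), or 1.43-fold with an interval of 1.11 to 1.83, and was not called (adjusted p = 0.0629; unadjusted p = 0.00899 in limma). Treated mouse 2 was the mouse that departed most from its group over all tested probe sets, with a median absolute deviation of 0.285 against 0.115 to 0.193 in the other 10. The study reports that its treated sample T2 responded least, by exon skipping, by dystrophin in mass spectrometry and by mRNA. Its western blot values did not correlate significantly with the first 2 measures. That T2 is this mouse is read from the shared number only. Without treated mouse 2 the difference from *mdx* mice was 0.63 and was called (adjusted p = 0.0145). Without C57 mouse 2 or 3 or treated mouse 1 or 4 the call against C57 mice was lost, with values of 0.47 to 0.64 and an adjusted p of up to 0.120.

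Dystroglycan mRNA was the steadiest of the 4, between 10.42 and 10.85 in all 11 mice, and no difference was called. The log2 signal of Dag1 was 10.42, 10.46 and 10.50 in C57 mice 1 to 3. It was 10.49, 10.42, 10.61 and 10.57 in *mdx* mice 1 to 4, and 10.57, 10.85, 10.44 and 10.62 in Pip6e-PMO mice 1 to 4. The groups overlapped, and the highest value was that of treated mouse 2. The difference was 0.06 (SE 0.10; 95% interval -0.16 to 0.29; adjusted p = 0.783) in *mdx* minus C57. Treated minus *mdx* was 0.10 (SE 0.10; interval -0.11 to 0.31; adjusted p = 0.521), and treated minus C57 was 0.16 (SE 0.10; interval -0.07 to 0.39; adjusted p = 0.272). These intervals are the narrowest of the 4 genes, and the highest bound among them is 0.39.

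Laminin alpha 2 mRNA rose in *mdx* muscle, 1.62-fold over C57, and was 1.99-fold over C57 in treated muscle. The log2 signal of Lama2 was 8.24, 7.47 and 7.53 in C57 mice 1 to 3 and 8.46, 8.57, 8.57 and 8.16 in *mdx* mice 1 to 4. It was 8.60, 8.56, 8.84 and 8.96 in Pip6e-PMO mice 1 to 4. All *mdx* mice lay above C57 mice 2 and 3, but *mdx* mouse 4 lay below C57 mouse 1, so the groups overlapped, and every treated mouse lay above every C57 mouse. The means were 7.75 ± 0.43 (SD, n = 3), 8.44 ± 0.19 (SD, n = 4) and 8.74 ± 0.19 (SD, n = 4).

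Lama2 differed by 0.69 (SE 0.18; adjusted p = 0.0291) in *mdx* minus C57, with a fold interval of 1.22 to 2.14. Its difference in treated minus C57 was 0.99 (SE 0.18; adjusted p = 0.00334), with a fold interval of 1.51 to 2.63. Between treated and *mdx* mice it differed by 0.30 (SE 0.17; 95% interval -0.07 to 0.67) and was not called (adjusted p = 0.251), so treated mice had no called difference from the raised *mdx* level in either direction. Leaving out any 1 mouse kept treated minus C57 called, at 0.86 to 1.24. The call in *mdx* mice was lost without C57 mouse 2 or 3 or *mdx* mouse 1, 2 or 3, at 0.56 to 0.69 with an adjusted p of 0.0604 to 0.141.

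**Figure D2:**
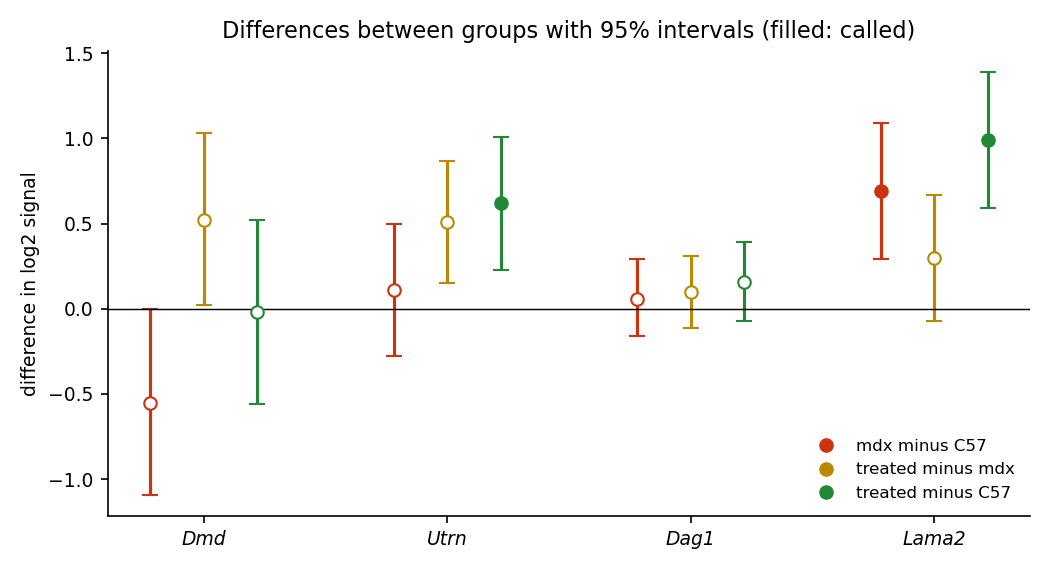
Difference in mean log2 signal (vertical axis) of each of the 4 genes in *mdx* minus C57, in treated minus *mdx* and in treated minus C57, with 95% intervals from limma and filled points for an adjusted p under 0.05. Filled points are Lama2 in *mdx* minus C57 (0.69), Utrn in treated minus C57 (0.62) and Lama2 in treated minus C57 (0.99).

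Among the 4 genes, 1 was called in *mdx* minus C57, against 12% of all tested probe sets. The count was 0 of 4 in treated minus *mdx*, against 11.1%, and 2 of 4 in treated minus C57, against 24.6%. All 3 calls were of higher signal, and the shares of tested probe sets called higher were 7.06%, 7.26% and 15.6%. An unadjusted p under 0.05 was reached by 2 of 4 genes in each comparison, which are Dmd and Lama2, Dmd and Utrn, and Utrn and Lama2, against 24.9%, 31.5% and 39.7% of tested probe sets. The groups did not overlap for 0, 0 and 1 of the 4 genes, against 24.3%, 16% and 32%, and that gene was Lama2 in treated minus C57. With 4 genes these counts lie within about 1 gene of the background shares, so the results are those of the single genes. None of the 3 calls held at an adjusted p under 0.05 with the methods' t-test on log2 signals in place of limma. There the adjusted p was 0.165 (unadjusted 0.0326) for Lama2 in *mdx* minus C57. Against C57 mice after treatment it was 0.151 (unadjusted 0.0454) for Utrn and 0.0661 (unadjusted 0.00841) for Lama2. The methods of the study set an unadjusted p under 0.05, which all 3 reached on log2 signals. With the same test on linear signals Utrn did not reach it (unadjusted 0.0597), and both calls of Lama2 did (0.0305 and 0.00737). The study's filter for mRNAs changed in *mdx* muscle also asked for a p under 0.01 and 1.5-fold. Of the log2 values above, only that of Lama2 in treated minus C57 lay under 0.01. The call of Utrn was also lost when the other group was left out of the fit (adjusted p = 0.0583) and when quantile normalization was repeated (0.49, adjusted p = 0.0648). The 3 comparisons share mice pairwise: the C57 mice serve both comparisons with C57, and the *mdx* and treated mice are each used in 2, so the 3 differences of a gene are not independent of each other.

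Utrophin was also set against dystrophin within each mouse, as log2 Utrn minus log2 Dmd. The value itself has no level to read, since signals of different probe sets are not on a common scale, and only its change between groups was compared. It was 0.79, 0.59 and 0.33 in C57 mice 1 to 3, and 0.65, 1.03, 1.40 and 1.82 in *mdx* mice 1 to 4. In Pip6e-PMO mice 1 to 4 it was 1.06, 1.15, 1.18 and 1.46. Every treated mouse exceeded every C57 mouse, and the *mdx* mice covered the range of the treated mice and beyond. The change in treated minus C57 was 0.64 (exact permutation test, two-sided, p = 0.0571, the smallest that 3 against 4 mice allow; adjusted p = 0.171 over 6 tests), and in *mdx* minus C57 it was 0.66 (exact p = 0.114; adjusted p = 0.171). Treated and *mdx* mice differed by -0.01 (exact p = 1; adjusted p = 1). The same subtraction for the receptor and its ligand, log2 Lama2 minus log2 Dag1, changed by 0.63 in *mdx* minus C57, 0.20 in treated minus *mdx* and 0.83 in treated minus C57, with exact permutation p-values of 0.114, 0.40 and 0.114 (adjusted p = 0.171, 0.48 and 0.171).

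The members varied among the mice in different ways. Over the 11 mice, which fall into the 3 groups and were normalized together, Pearson's r between log2 signals was 0.69 for Utrn and Lama2, and 0.44 once each group's mean was taken out. For Dmd and Utrn r was 0.43 and, without the group means, 0.48. The other 4 pairs had r between -0.18 and 0.27. Treated mouse 1 was highest of all mice for Dmd and Utrn, treated mouse 2 for Dag1 and treated mouse 4 for Lama2.

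The genes whose signal followed each member most closely over the 11 mice were read from 11843 genes, as a description. For Dmd they were Ckmt2, the sarcomeric mitochondrial creatine kinase (r = 0.95), the kinase Jak2 (0.92) and the peroxisomal transporter Abcd2 (0.91), and without *mdx* mouse 4 these were 0.86, 0.81 and 0.78. None of these 3 was called in any comparison. For Utrn they were Sema6d, a semaphorin (0.98), Tnrc6a, a component of the microRNA silencing complex (0.97), and Pum3, listed as D19Bwg1357e (0.97). Sema6d was called in treated minus *mdx* (0.62, adjusted p = 0.0315 in limma) and in treated minus C57 mice (0.77, adjusted p = 0.0079), and the other 2 were not called. For Dag1, Snai3, Ahdc1 and Srrt each had r = 0.90, none was called in any comparison, and without treated mouse 2 the r of Ahdc1 and Srrt was 0.77 and 0.68.

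Lama2 was most like Cflar, an inhibitor of caspase-8 activation (r = 0.98), Anxa1, a phospholipid-binding annexin (0.97), and Itih5, a hyaluronan-binding inter-alpha-trypsin inhibitor heavy chain (0.96). Like Lama2, Cflar and Itih5 were called in *mdx* minus C57 (0.36, adjusted p = 0.0428, and 0.80, adjusted p = 0.00859 in limma) and in treated minus C57 (0.54, adjusted p = 0.00411, and 1.07, adjusted p = 0.00139). Anxa1 was called in treated minus C57 alone (1.15, adjusted p = 0.00321; 0.70 in *mdx* minus C57, adjusted p = 0.0513).

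The partners of Lama2 in the basement membrane moved with it for the most part. Of 14 tested genes among 17 laminins and other basement membrane genes listed, 8 were called higher and 1 lower in *mdx* minus C57, against 12% of all tested probe sets called. The median difference was 0.49 beside -0.01 over all tested probe sets. The list was chosen with earlier results of these data known. Of the tested beta and gamma chains of laminin, Lamb1 rose by 0.77 (adjusted p = 0.00299) and Lamc1 by 0.48 (adjusted p = 0.0156). Lamb2 differed by 0.02 (adjusted p = 0.942), and Lamc3 fell by 0.49 (adjusted p = 0.0301). Another alpha chain, Lama4, rose by 0.51 (adjusted p = 0.0353). The network collagen chains Col4a1 and Col4a2 rose by 1.04 (adjusted p = 0.000733) and 0.95 (adjusted p = 0.00228). The nidogens, which bridge laminin and collagen IV, rose as well (Nid1 by 0.62, adjusted p = 0.000971, and Nid2 by 0.73, adjusted p = 0.00384), as did Bgn, the small proteoglycan biglycan (0.82, adjusted p = 0.00189).

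In treated minus *mdx* none of the 14 basement membrane genes was called by limma or the methods' t-test (median 0.16), though 6 had an unadjusted p under 0.05, with the largest differences in Lama5 (0.41, adjusted p = 0.0522 in limma) and Bgn (-0.40, adjusted p = 0.0535). In treated minus C57, 10 were called higher and 1 lower (median 0.56). Over all tested probe sets, 11.1% and 24.6% were called in treated minus *mdx* and treated minus C57. These included Lamb1 (1.10, adjusted p = 0.000299), Lamc1 (0.43, adjusted p = 0.0172), Lama4 (0.72, adjusted p = 0.00438) and Lama3 (0.40, adjusted p = 0.0301). Col4a1 (1.23, adjusted p = 0.00025), Col4a2 (1.02, adjusted p = 0.00128), Nid1 (0.86, adjusted p = 0.000154) and Nid2 (1.00, adjusted p = 0.000453) were higher too. The proteoglycans Hspg2, or perlecan (0.69, adjusted p = 0.00321), and Bgn (0.42, adjusted p = 0.0347) completed the 10, Lamc3 was the lower one (-0.40, adjusted p = 0.0439), and Agrn, which also binds dystroglycan, differed by 0.26 (adjusted p = 0.0947). Without C57 mouse 3 the 11 called were 7, and calls over all probe sets were 1902 in place of 3564.

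The other proteins of the dystrophin-associated complex are the sarcoglycans and sarcospan in the membrane and the dystrobrevins and syntrophins beneath it. Of 14 tested of 17 listed, 1 was called in *mdx* minus C57, Sntb2, encoding beta-2-syntrophin (0.43, adjusted p = 0.0129), the list's median was 0.06, and the next largest difference was that of Sntb1 (0.34, adjusted p = 0.140). Without C57 mouse 3 none was called. In treated minus *mdx*, Sntb2 rose by 0.44 (adjusted p = 0.0177) and sarcospan, Sspn, by 0.32 (adjusted p = 0.0443), with a median of 0.33, and Cav3, the caveolin of muscle, differed by -0.45 (adjusted p = 0.0823). The 2 called became 8 without treated mouse 2, and 0 or 1 without *mdx* mouse 1, 2, 3 or 4, C57 mouse 2 or 3, or treated mouse 1, 3 or 4. Calls over all probe sets moved as well, from 1615 to 4123 without treated mouse 2. Without any 1 of those other mice they numbered 296 to 1448. In treated minus C57, 6 were called and all were higher: Sntb2 (0.87, adjusted p = 0.000196), Dtna (0.69, adjusted p = 0.0158), Sntb1 (0.68, adjusted p = 0.00519), Sgcb (0.65, adjusted p = 0.00741), Sgce (0.53, adjusted p = 0.039) and Sspn (0.36, adjusted p = 0.0206). The median was 0.28, and without C57 mouse 3 the 6 were 3. All tested probe sets had 12%, 11.1% and 24.6% called in the 3 comparisons. The counts of 1 and 2 of 14 lie near the first 2 of these shares.

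The enzymes that build the laminin-binding sugar chain of dystroglycan showed no common direction. Of 17 tested of 18, none was called in *mdx* minus C57 by limma or the methods' t-test (median -0.07; 3 at an unadjusted p under 0.05), where the largest differences were those of Dpm3 (0.42, adjusted p = 0.135) and Pomgnt2 (-0.37, adjusted p = 0.080). In treated minus *mdx*, B3galnt2 rose by 0.38 (adjusted p = 0.0427) and Dpm3, a subunit of dolichol-phosphate mannose synthase, fell by 0.65 (adjusted p = 0.0262). Against C57, 2 were called higher and 3 lower in treated mice (median -0.03), among them B3galnt2 (0.55, adjusted p = 0.00665), Pomgnt2 (-0.56, adjusted p = 0.00942), B4gat1 (-0.37, adjusted p = 0.0464) and Pomt1 (-0.28, adjusted p = 0.043). The shares called over all tested probe sets were 12%, 11.1% and 24.6% in the 3 comparisons. The 2 and 5 of 17 called in the last 2 lie near those shares. Without treated mouse 2 the counts of 0, 2 and 5 called in the 3 comparisons were 2, 7 and 8. Calls over all probe sets were then 2215, 4123 and 4954, against 1742, 1615 and 3564 with that mouse. In *mdx* minus C57 1 was called without *mdx* mouse 3 or treated mouse 1. The count in treated minus *mdx* was 0 without *mdx* mouse 3 or 4 or treated mouse 1, 3 or 4 and 1 without *mdx* mouse 2 or any 1 C57 mouse, and that in treated minus C57 was 2 without C57 mouse 3 and 3 without C57 mouse 2, *mdx* mouse 2, 3 or 4, or treated mouse 1, 3 or 4. In treated minus *mdx*, calls over all probe sets fell to 296 to 566 without *mdx* mouse 3 or 4 or treated mouse 1, 3 or 4.

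Integrins and the proteins of the costamere form the other link from fibre to matrix. Of 15 tested of 16, 4 were called in *mdx* minus C57, all higher (median 0.25): Itga7, which pairs with Itgb1 as the laminin receptor of muscle (0.57, adjusted p = 0.0319), Itgb1 (0.63, adjusted p = 0.0197), Itga5, a fibronectin receptor chain (0.69, adjusted p = 0.021), and vinculin, Vcl (0.54, adjusted p = 0.0372). In treated minus *mdx*, Itgb1 (0.58, adjusted p = 0.0284) and Itga6, another laminin receptor chain (0.76, adjusted p = 0.0224), rose, and the keratin Krt8 fell by 0.68 (adjusted p = 0.0242). In treated minus C57, Itgb1 (1.21, adjusted p = 0.000372), Itga6 (1.05, adjusted p = 0.00257) and Vcl (0.73, adjusted p = 0.00585) were higher, and Itga7 was not called (0.44, adjusted p = 0.0548). Beside these counts, 12%, 11.1% and 24.6% of all tested probe sets were called in the 3 comparisons. The 3 of 15 called in treated minus C57 lie near that share. The 4 called in *mdx* minus C57 were 1 without C57 mouse 2 or 3 or *mdx* mouse 4 and 2 without *mdx* mouse 2 or 3. The 3 called in treated minus *mdx* were 7 without treated mouse 2, 1 without treated mouse 1, and 0 without *mdx* mouse 4 or treated mouse 3 or 4. Calls over all probe sets, 1615 with every mouse, were 4123, 490 and 296 to 381 in these same settings.

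**Figure D3:**
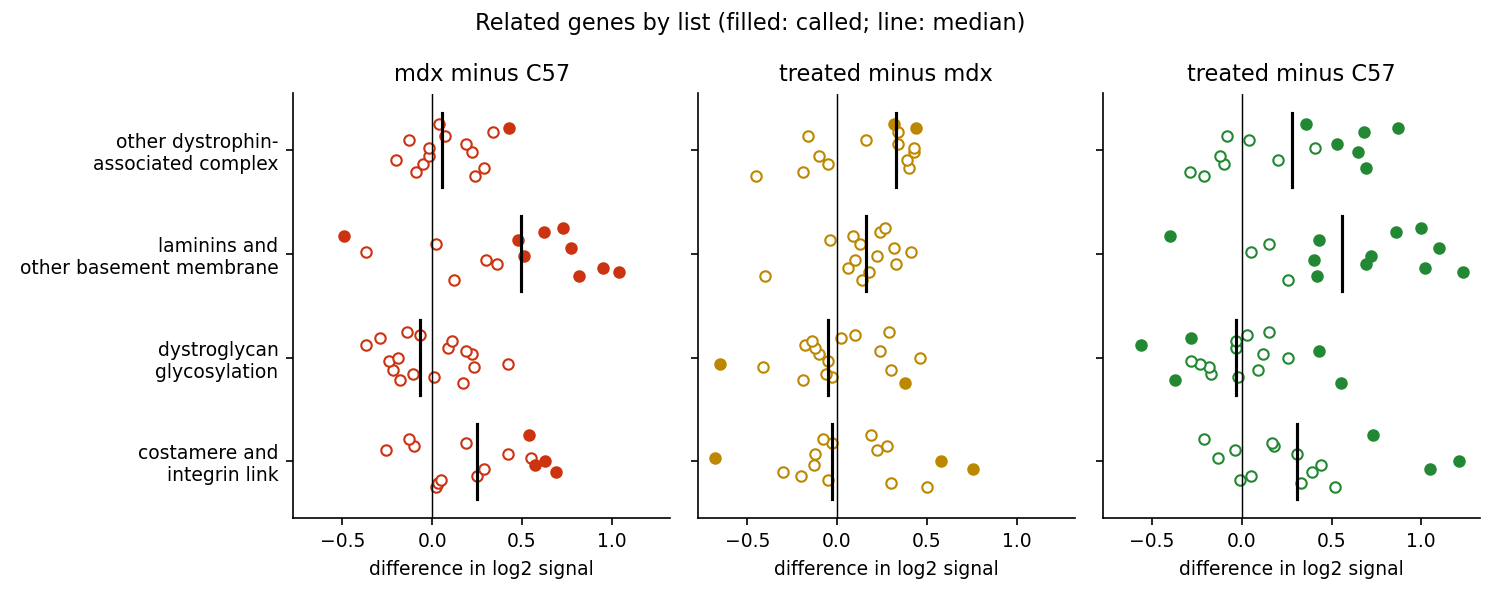
Difference in log2 signal (horizontal axes) of each tested gene of 4 related lists in *mdx* minus C57, in treated minus *mdx* and in treated minus C57, with filled points for an adjusted p under 0.05 and a line at the list's median. In *mdx* minus C57 the basement membrane genes have a median of 0.49 and the other lists lie between -0.07 and 0.25.

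Markers of other cell types differed between groups too, not all in the direction of Lama2 and Utrn. Their counts, here and in the next paragraph, stand beside shares of all tested probe sets. Called higher were 7.06%, 7.26% and 15.6%, and called in either direction 12%, 11.1% and 24.6%, in the order of comparisons used above. All 10 markers of skeletal muscle fibres were measured, none was called in any comparison by limma or the methods' t-test (0, 0 and 1 at an unadjusted p under 0.05), and their summed intensity was 68244 to 69887 in C57 mice, 69705 to 70265 in *mdx* mice and 66415 to 70833 after treatment. Their group mean log2 signals were very high, from 11.69 (Myh1 in C57 mice) to 13.28 (Acta1 in *mdx* mice). Whether signals that high follow fibre content was not tested. Of 7 fibroblast markers, all tested, 2 were called higher in *mdx* minus C57 and 4 in treated minus C57, with summed intensities of 4805 to 6568 in C57 mice, 7087 to 8466 in *mdx* mice and 6419 to 11053 after treatment, the highest in treated mouse 2. Of 8 macrophage markers 7 were tested, with 6 called higher in *mdx* minus C57 and 5 in treated minus C57. Of the same markers 1 was called higher and 2 lower in treated minus *mdx*, where Utrn and Lama2 differed by 0.51 and 0.30, and the list's median was -0.36. The sum of the 8 was 1049 to 1482 in C57 mice, 2806 to 4437 in *mdx* mice and 2189 to 2972 after treatment, while Cd163 had a mean below 30 in every group and Itgam in C57 mice. All 6 endothelial markers were tested, with 2 called higher in treated minus *mdx* (median 0.34) and 3 in treated minus C57. Their sum was 1767 to 2195 in C57 and 2013 to 2570 in *mdx* mice, and 3292, 2380, 2806 and 2961 in treated mice 1 to 4. C57 and treated mice stood in the same order for this sum as for Utrn. The *mdx* mice did not, with the highest sum in mouse 1 (2570) and the highest Utrn signal in mouse 3 (6.73).

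Of 7 regenerating fibre markers, all tested, 6 were called higher in *mdx* minus C57 and 3 in treated minus C57, with sums of 628 to 798, 1348 to 2133 and 772 to 1563 in C57, *mdx* and treated mice, and Chrng and Myh3 had a mean below 30 in C57 mice. None of the 7 was called in treated minus *mdx* by limma or the methods' t-test, 4 had an unadjusted p under 0.05, and the median was -0.78. Of 8 Schwann cell markers 6 were tested, with 3 lower and 1 higher in *mdx* minus C57 and 3 lower in treated minus C57, and a median of -0.22 in treated minus *mdx*. Their sums were 1735 to 2692, 1350 to 1708 and 1259 to 1501, and Prx and S100b, and outside C57 mice Sox10, had means below 30. The part of these cell types in the differences of the 4 genes was not tested.

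Dmd, Utrn and Lama2 are very long genes, and genes spanning 30 kb or more were on the whole higher in treated muscle. Without the 4 members, 221 tested genes had a probe set spanning 300 kb or more, and in treated minus *mdx* 79.6% of them were higher, with a median of 0.21, against 42.8% and -0.04 of 7490 genes spanning under 30 kb. The classes between were shifted as well: of 3027 genes spanning 30 to under 100 kb, the size class of Dag1, 73.4% were higher, with a median of 0.15, and of 1102 genes spanning 100 to under 300 kb 77.7% were higher, with a median of 0.18. Called higher were 423, 149 and 32 genes of these 3 classes, from the shortest to the longest, and 301 of those under 30 kb. Genes read by over 40 probes, as are Dmd, Utrn and Lama2, were also higher for the most part (70.7% of 1405, median 0.12). In treated minus C57 the median of the long genes was 0.25 and 76.5% were higher, and in *mdx* minus C57 these were 0.02 and 54.8%. The median of the 221 genes, relative to its mean over the 11 mice, was 0.00, -0.05 and -0.21 in C57 mice 1 to 3, -0.12, -0.02, -0.07 and -0.15 in *mdx* mice 1 to 4, and 0.23, -0.05, 0.21 and 0.27 in treated mice 1 to 4. Treated mouse 2, whose Utrn signal was lowest of the treated mice, was also the treated mouse without a raised long-gene median, and C57 mouse 3 had the lowest values of both. Other mice did not match: Utrn was highest in treated mouse 1, but the long-gene median was highest in treated mouse 4. Among *mdx* mice, mouse 2 had the highest long-gene median (-0.02) and the lowest Utrn signal (6.39). The part of gene span in the Utrn values was not tested.

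When each array was centred on the median of the 221 long genes, a scaling chosen after these values were seen, Utrn was no longer called in treated minus C57 (0.37, adjusted p = 0.0668 in limma) and stood at 0.26 in treated minus *mdx* (adjusted p = 0.167). Lama2 was still called in *mdx* minus C57 (0.70, adjusted p = 0.0154) and in treated minus C57 (0.74, adjusted p = 0.00608), with 0.04 in treated minus *mdx*. Dmd stood at 0.27 in treated minus *mdx* and -0.27 in treated minus C57, and Dag1, whose probe set spans 57991 bases, stood at -0.16 and -0.09. This scaling takes 1 value from every signal of an array, so it moves all genes of a comparison by the same amount. It brought the median of all tested probe sets to -0.238 in treated minus *mdx* and -0.248 in treated minus C57. The changed signs of Dag1 and the lower values of Utrn, Dmd and Lama2 in these comparisons are thus set by the scaling. They are read only relative to the long genes. The same holds for the dystrophin-associated complex, which then had 0 genes called higher and 3 lower in treated minus *mdx*, and 4 higher and 2 lower in treated minus C57.

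**Figure D4:**
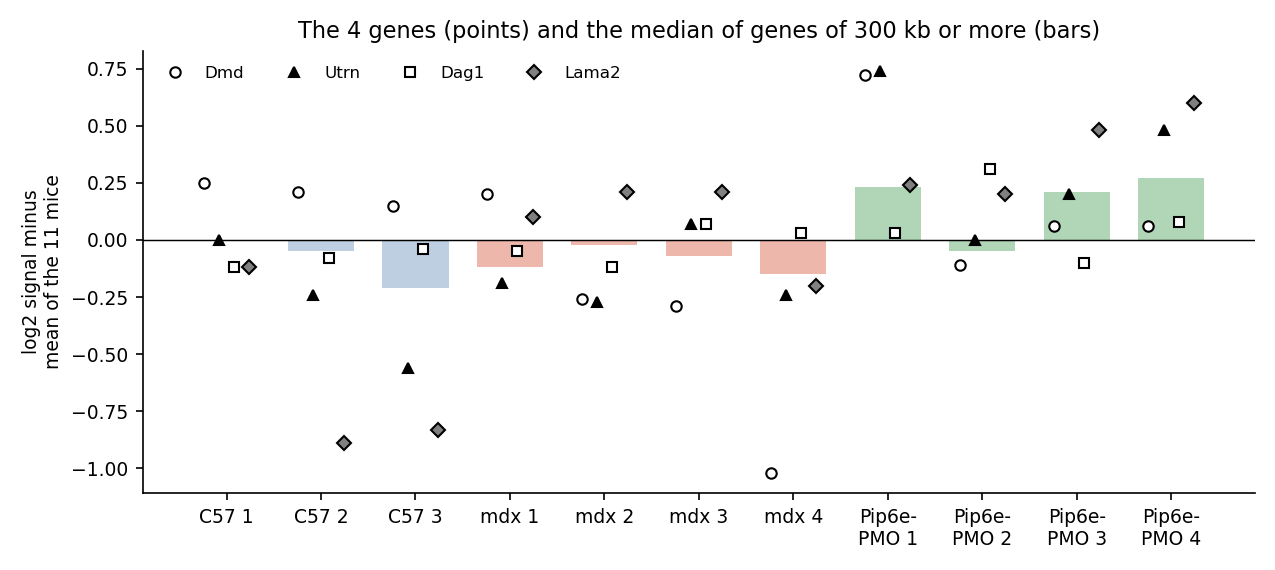
Log2 signal minus the mean of the 11 mice (vertical axis) for each mouse, with points for Dmd, Utrn, Dag1 and Lama2 and bars for the median of 221 other genes whose probe sets span 300 kb or more. Bars of treated mice 1, 3 and 4 lie at 0.21 to 0.27, and that of treated mouse 2 lies at -0.05.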

How the data were processed

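The authors hybridized TA RNA of the 3 C57, 4 *mdx* and 4 Pip6e-PMO mice to Affymetrix Mouse Gene ST 1.1 arrays and processed them in Affymetrix Expression Console with RMA (background correction, sketch-quantile normalization, median polish). The deposited intensities are linear, 1 column per mouse and not pooled, with array medians of 27.5 to 28.6. The number of arrays limits the precision. Mice are separate animals, and groups came from the sample titles.

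Log2 intensities of the 14494 probe sets whose mean reached 30 in any group were fitted in R 4.3.3 with limma 3.58.1 (lmFit, eBayes; 1 mean per group, all 11 mice), with Benjamini-Hochberg adjustment over all of them. The methods of the study state an unpaired t-test, which was run as an alternative with the same adjustment. Within-mouse differences were compared by exact permutation in SciPy 1.17.1. Python 3.11.15, pandas 2.3.3, NumPy 2.4.6 and matplotlib 3.10.9 were also used. Where a listed gene has several probe sets, that with the highest mean was taken.

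Genes named are the 4 members, called genes and the 2 largest differences of each related list, and the 3 genes most correlated with each member. The members and lists were chosen with earlier results of these data known. Marker lists are given as counts, sums and the markers below 30. Sgcz, Sntg1, Sntg2, Lama1, Lamb3, Krt19, Cd163, Prx and S100b were among the genes that did not pass the minimum signal. Pomgnt2, Pomk, Rxylt1 and B4gat1 carry older symbols in the deposited table. Some list genes count in their lists but are not reported here by name. The PMO sequence is that given in the supplementary methods of the study.

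The alternatives were the t-test on log2 and linear signals, a fit of the 2 groups alone, array weights, a robust prior with a trend, a minimum signal of 100 or none, centring on array medians, repeated quantile normalization, the probe sets of a gene averaged or reduced to 1, the study's threshold (unadjusted p under 0.01 and 1.5-fold), a replicate block, leaving out each mouse, and, chosen after seeing the data, centring on long genes and the t-test for the lists.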

Additional observations from a re-analysis of the deposited data

How the results depend on the processing

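Of the 4 genes' 12 differences, Utrn in treated minus C57 (0.62) lost its call with the t-test on log2 signals (0.62, adjusted p = 0.151) and on linear signals (0.63, 0.176), with only the 2 groups fitted (0.62, 0.0583), after repeated quantile normalization (0.49, 0.0648) and after centring on long genes (0.37, 0.0668). Lama2 lost its call in *mdx* minus C57 with the t-test on log2 (0.69, adjusted p = 0.165) and linear signals (0.66, 0.166), and in treated minus C57 with the same tests (0.99, 0.0661, and 0.96, 0.0701). Utrn in treated minus *mdx* gained a call with array weights (0.45, adjusted p = 0.021). Uncalled values changed sign for Dmd in treated minus C57 (0.02 on linear signals) and for Dag1 in treated minus *mdx* (-0.01 with array weights, -0.16 with long-gene centring) and treated minus C57 (-0.09 with long-gene centring). The causes were not tested beyond what leaving out a mouse shows.

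Leaving out each mouse gave -0.73 to -0.32, 0.30 to 0.71 and -0.20 to 0.08 for Dmd in *mdx* minus C57, in treated minus *mdx* and in treated minus C57. The same 3 ranges were -0.04 to 0.24, 0.38 to 0.63 and 0.47 to 0.76 for Utrn, 0.03 to 0.10, 0.02 to 0.16 and 0.08 to 0.22 for Dag1, and 0.56 to 0.94, 0.21 to 0.36 and 0.86 to 1.24 for Lama2. For Utrn minus Dmd they were 0.46 to 0.85, -0.20 to 0.19 and 0.52 to 0.75. The counts called ranged over 0 to 1, 0 to 8 and 3 to 7 in the dystrophin-associated complex, 6 to 9, 0 to 1 and 7 to 11 in the basement membrane, 0 to 2, 0 to 7 and 2 to 8 in glycosylation, and 1 to 5, 0 to 7 and 3 to 4 in the costamere list. Calls over all probe sets ranged over 1006 to 2215, 296 to 4123 and 1902 to 4954.

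Among other settings, the complex had 1 gene called in treated minus *mdx* with median centring and 0 in *mdx* minus C57 with long-gene centring. The basement membrane had 1 called, lower, in treated minus *mdx* with median centring, the trended prior or long-gene centring, and 7 in treated minus C57 with the last. Glycosylation had 1 called, lower, in *mdx* minus C57 with no minimum, a minimum of 100 or median centring, 1 in treated minus *mdx* with no minimum and 3 in treated minus C57 with the trended prior. The costamere list had 2 called in *mdx* minus C57 with long-gene centring. With the t-test on log2 signals, run on the lists after seeing the data, the complex, basement membrane, glycosylation and costamere lists had 1, 7, 0 and 1 called in *mdx* minus C57, 0 each in treated minus *mdx*, and 1, 4, 1 and 1 in treated minus C57. Of all 14494 probe sets this t-test called 791, 88 and 1274 in the 3 comparisons. In the limma fit used above, all tested probe sets called numbered 1742, 1615 and 3564. Over the settings these counts were 538 to 3379, 77 to 4614 and 879 to 6547. Higher and lower calls were 1023 and 719 in *mdx* minus C57 and 2265 and 1299 in treated minus C57, but 881 and 892, and 1960 and 1875, with median centring. With repeated quantile normalization treated minus C57 had 1736 and 1863, and with long-gene centring treated minus *mdx*, at 1052 and 563, had 276 and 3128 and treated minus C57 had 909 and 4153.

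Mouse numbers did not pair the samples: of 10 same-number pairs, whose deviations correlated at -0.297 to 0.153, 1 was over 0.1, and 1 mouse was most like its own number. With the replicate block, Lama2 in *mdx* minus C57 was 0.70 (adjusted p = 0.074) and no longer called, Dmd in treated minus C57 was 0.11, and the calls over all probe sets were 1145, 498 and 2332. With the block, the complex and glycosylation lists had 0 called in treated minus *mdx*, the glycosylation list 3 in treated minus C57, and the costamere list 1 each in *mdx* minus C57 and treated minus *mdx*. The block changed no other call of the 4 genes.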
